A study of Mus musculus with 4 samples.

Results

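In cultured stromal vascular fraction (SVF) cells of mouse fat, cells with the highest joint level of Mustn1, Acta1, Ckb and Ramp1 were described in 2 libraries, 1 per depot. A barcode entered when it held 5000 to 75000 UMIs (unique molecular identifiers, 1 per captured transcript), 200 to 7500 genes and under 10% mitochondrial UMIs. Within each library, the members were the top 5% of these barcodes by the UMIs of the 4 genes divided by all UMIs. This gave 337 of 6745 barcodes in eWAT_SVF and 371 of 7424 in iWAT_SVF, 708 of 14169 in all, out of 28262 barcodes within the limits in the whole series. They were set beside the 50% of barcodes with the lowest ratio in the same library, called the lower 50% here, which held 3372 and 3712 barcodes. The barcodes between were kept apart.

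The series holds 4 single-cell libraries of cells from chow-fed, male C57BL/6J mice with no labelled allele or treatment, 1 per condition: de-differentiated fat (DFAT) cells, grown out of mature adipocytes in ceiling culture, and plated SVF cells, each from epididymal (eWAT) and inguinal (iWAT) white adipose tissue. All 4 are primary cultures that were detached with trypsin and sorted on 7-AAD, a dye that enters dead cells, so no freshly isolated tissue cell was measured. Mouse age and the number of animals per library are not given for these cultures in the sources used here. Each condition is a single library, so nothing here has a replicate: intervals cover counting error only, and no difference between members and lower 50%, or between depots, has a p-value. Libraries held 211396227 to 242282812 UMIs over all droplets, and any pair of libraries shared 13 to 20 barcode sequences within the limits, at most 0.297% of a library.

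The 4 genes have no single common role. Mustn1 encodes a small nuclear protein first described in the musculoskeletal system, and Acta1 encodes skeletal muscle alpha-actin, the thin filament actin of striated fibres. Ckb is the brain-type creatine kinase, which moves phosphate between creatine and ATP in the cytosol. Ramp1 is a membrane partner that turns the receptor encoded by Calcrl into a receptor for the neuropeptide CGRP, and it is well known in vascular smooth muscle. Fat depots hold smooth muscle cells and pericytes around their vessels, and stromal cells on plastic often take up contractile, myofibroblast-like traits. Many contractile genes carry CArG boxes, the sites bound by serum response factor, and some muscle genes carry MCAT sites, bound by TEAD factors, or MEF2 boxes.

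In mm10 with the GENCODE M21 annotation, Mustn1 (ENSMUSG00000042485) lies at chr14:30879200-30881610 on the plus strand, and Acta1 (ENSMUSG00000031972) at chr8:123891769-123894751 on the minus strand. The promoters of 3 genes, Fbxl22 and the choosing genes Acta1 and Ckb, are printed because letters of such sites lie close to the start. They are the 250 bases before the RefSeq start of Acta1 (chr8:123894776-123895025, minus strand), Ckb (chr12:111672339-111672588, minus strand) and Fbxl22 (chr9:66514594-66514843, minus strand), in GRCm38.p6, 5′ to 3′. Capitals mark CATTCC or its reverse complement (MCAT), a CArG box, or a MEF2 box. Fbxl22, an F-box protein of the muscle sarcomere, was among the genes highest in the members.
Acta1: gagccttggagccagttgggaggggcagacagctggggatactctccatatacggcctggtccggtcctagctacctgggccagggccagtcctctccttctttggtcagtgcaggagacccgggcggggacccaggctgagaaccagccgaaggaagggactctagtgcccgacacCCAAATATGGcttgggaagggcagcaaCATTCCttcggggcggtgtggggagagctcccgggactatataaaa
Ckb: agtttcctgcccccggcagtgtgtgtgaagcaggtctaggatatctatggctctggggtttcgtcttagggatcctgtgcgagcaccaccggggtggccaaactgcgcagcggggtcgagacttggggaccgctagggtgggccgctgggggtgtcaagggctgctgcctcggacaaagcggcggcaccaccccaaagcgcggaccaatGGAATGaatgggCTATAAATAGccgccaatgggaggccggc
Fbxl22: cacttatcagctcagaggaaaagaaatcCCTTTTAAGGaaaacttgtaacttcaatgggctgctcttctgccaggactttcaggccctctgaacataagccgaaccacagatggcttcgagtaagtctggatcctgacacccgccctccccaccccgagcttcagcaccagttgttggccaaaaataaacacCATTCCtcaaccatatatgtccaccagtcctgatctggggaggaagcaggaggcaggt
In Acta1 the CArG box, CCAAATATGG, ends 64 bases before the start and CATTCC ends 41 bases before it. Both are counted from the RefSeq start, which lies upstream of the GENCODE M21 start of Acta1 given above. In Ckb, GGAATG ends 36 bases and the MEF2 box, CTATAAATAG, 20 bases before the start. In Fbxl22, CATTCC ends 53 bases before the start and CCTTTTAAGG, a CArG box, ends 213 bases before it. The 3 motifs were chosen with these sequences in view and searched on both strands, and no motif overlapped another in the printed windows. Of the 19 genes made up of the 4 choosing genes and the 15 highest named below, 11 are in the RefSeq table with 14 starts. Beside the 3 printed promoters, in which the motifs were picked, CATTCC was present for Mylk and a CArG box for Fhl1 among these 11. Of all 27025 genes with at least 1 such start, 14.4% held CATTCC, 1.62% a CArG box and 3.42% a MEF2 box, and no comparison is drawn from these shares. A match is a description of letters, not a site shown to be bound.

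The ratio that chose the members had no gap at its limit. In eWAT_SVF the lowest member stood at 1964 UMIs of the 4 genes per 1000000 (48 UMIs of 24434) and the highest barcode outside at 1963. In iWAT_SVF these were 999.5 and 999.1. The members' median was 2484 in eWAT_SVF and 1382 in iWAT_SVF, against 211 and 82.0 in the lower 50% of each, where 9.31% and 20.1% of barcodes held none of the 4 genes. The limits differ between depots, so the members of the 2 libraries are not cells above 1 common level: 20.6% of eWAT_SVF barcodes exceeded the iWAT_SVF limit and 1.09% of iWAT_SVF barcodes exceeded the eWAT_SVF limit.

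**Figure D1:**
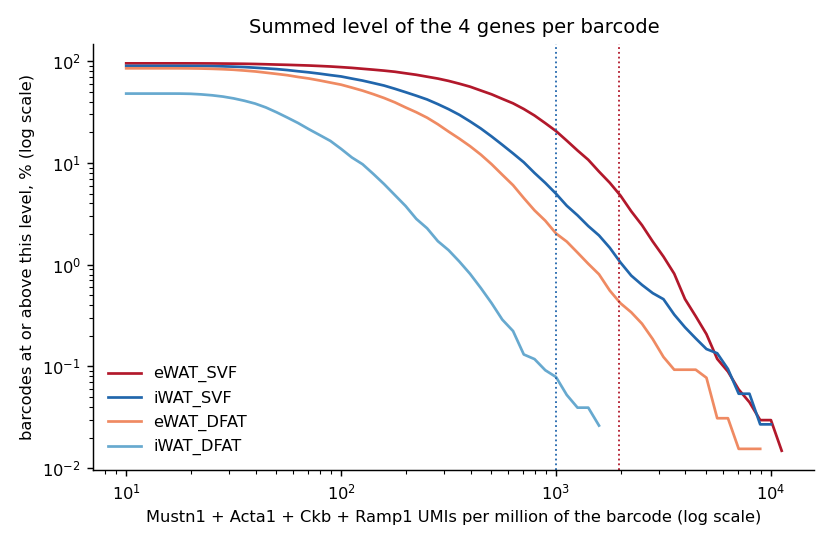
Share of barcodes within the limits (y axis, percent, log scale) at or above each summed level of the 4 genes (x axis, UMIs per 1000000 of the barcode, log scale), 1 curve per library, with dotted lines at the lowest member of eWAT_SVF and iWAT_SVF. The curves fall without a step at either limit, where both DFAT curves lie below both SVF curves.

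The levels of the 4 genes themselves describe the choice and are not findings. Levels are given in CPM, the UMIs of a gene per 1000000 UMIs summed over a group of barcodes. In eWAT_SVF members, Acta1 stood at 1261 CPM (exact Poisson 95% interval 1240 to 1283), against 118 in the barcodes between and 12.2 in the lower 50%. In iWAT_SVF it stood at 1151 CPM (1130 to 1171), 101 and 11.9. Acta1 differed less between depots in the members than Ckb, Mustn1 or Ramp1. Ckb stood at 969, 441 and 117 CPM in eWAT_SVF and at 368, 181 and 44.1 in iWAT_SVF, and Mustn1 at 337, 207 and 62.2 against 208, 127 and 25.7. As a ratio, Ramp1 showed the widest depot gap, 306, 165 and 35.5 CPM in eWAT_SVF against 49.2, 22.9 and 6.70 in iWAT_SVF.

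**Figure D2:**
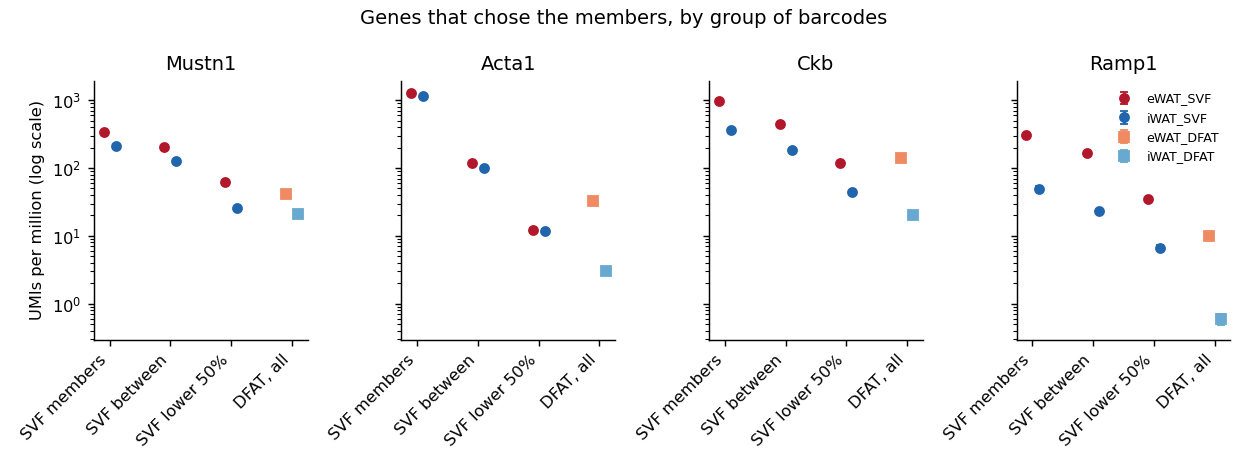
Levels of Mustn1, Acta1, Ckb and Ramp1 (UMIs per 1000000, log scale) in members, barcodes between and lower 50% of each SVF library (circles) and in all barcodes within the limits of each DFAT library (squares), with exact Poisson 95% intervals that are mostly smaller than the marks. The genes chose the groups, so the steps from lower 50% to members are set by the choice.

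The members were not 1 uniform set. Acta1 gave 43.9% of the 4 genes' UMIs in eWAT_SVF members and 64.8% in iWAT_SVF, Ckb 33.7% and 20.7%, Mustn1 11.7% in both, and Ramp1 10.6% and 2.77%. Counting which of the 4 genes had the most UMIs in each member, with ties in 9 and 8 members given to the gene listed first, Acta1 led in 170 and Ckb in 146 of the 337 eWAT_SVF members. In iWAT_SVF, Acta1 led in 240, Ckb in 73 and Mustn1 in 57 of 371. Acta1 was therefore high in some members and without a UMI in others. Per barcode its median was 941 CPM in eWAT_SVF and its highest value 9401 CPM. At least 1 UMI of it was held by 81.3% of members, against 15.2% of the lower 50%. In iWAT_SVF the median was 864 CPM, the highest value 10159 CPM, and the shares 82.2% and 18.9%.

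Shares of cells with a UMI depend on depth, and members were slightly deeper than the lower 50%, with a median of 29754 against 26150.5 UMIs in eWAT_SVF and 26543 against 23563.5 in iWAT_SVF. After thinning every barcode to 5000 UMIs, Acta1 was found in 72.7% of eWAT_SVF members (exact binomial interval 67.6 to 77.4%) and 4.63% of the lower 50%, and in 74.9% (70.2 to 79.3%) and 5.58% in iWAT_SVF. All 4 genes were found together in 71.2% of eWAT_SVF and 32.1% of iWAT_SVF members with all UMIs, and thinning left 27.6% and 5.93%. Free RNA can add UMIs to any barcode: in droplets with 1 to 100 UMIs, Acta1 stood at 138 CPM in eWAT_SVF and 140.1 in iWAT_SVF, against 129 and 115 CPM over all barcodes within the limits. Of the other actins Acta2 was abundant in these cells, and actin coding regions are near-identical, so how reads were split among them was not tested.

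To keep the counting noise that picks a member out of its measured level, the UMIs of each barcode were divided at random into 2 equal portions, members were chosen on 1 portion and levels read from the other. Acta1 was then 80.9-fold higher in members than in the lower 50% in eWAT_SVF and 61.9-fold in iWAT_SVF, Ckb 6.83-fold and 5.36-fold, Ramp1 6.64-fold and 5.40-fold, and Mustn1 4.46-fold and 4.80-fold. Both portions chose the same barcode for 72.7% of eWAT_SVF and 67.9% of iWAT_SVF members. Each gene was also read in barcodes chosen by the other 3 alone. Acta1 was 8.60-fold higher in the eWAT_SVF barcodes so chosen (441 against 51.3 CPM, log2 ratio 3.10, interval 3.05 to 3.16) and 3.62-fold higher in iWAT_SVF (294 against 81.3 CPM, 1.86, 1.79 to 1.92). Ramp1 was 4.49-fold and 3.61-fold higher, Ckb 3.72-fold and 2.65-fold, and Mustn1 2.87-fold and 1.84-fold. These values describe genes picked as joint markers of such cells and support nothing further. Without Acta1, 56.4% of eWAT_SVF and 46.1% of iWAT_SVF members were chosen again, with 3 of the 4 genes common to both choices. The top 5% by any pair of single genes shared 10.1 to 21.4% of their barcodes in eWAT_SVF and 6.74 to 14.8% in iWAT_SVF. As the genes were picked as joint markers, these shares too describe the choice and support nothing further.

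Levels of all genes but these 4 were then compared. A gene was tested when it reached 5 CPM over all barcodes of the library and was called when it differed at least 2-fold between members and lower 50%. In eWAT_SVF 117 of 9746 genes were higher in members (1.2%) and 762 were lower (7.82%), and in iWAT_SVF 91 of 9788 were higher (0.93%) and 214 lower (2.19%). The rule used 4 genes of the same cells, so these are descriptions and not tests. Of the 9403 genes tested in both libraries, 60 were higher in both (0.638%), which is 60.6% of the 99 higher in eWAT_SVF and 68.2% of the 88 higher in iWAT_SVF, and 125 were lower in both (1.33%), which is 19.0% of the 657 lower in eWAT_SVF and 76.2% of the 164 lower in iWAT_SVF. The median log2 ratio over all genes tested was -0.31 in eWAT_SVF and -0.18 in iWAT_SVF. Centred on that median, 250 genes were higher and 319 lower in eWAT_SVF, and 127 and 108 in iWAT_SVF, which moved the share of higher genes among the called from 13.3% to 43.9% and from 29.8% to 54.0%.

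Genes of smooth muscle contraction stood higher in the members. Of 15 tested smooth muscle contractile genes, 11 were at least 2-fold higher in eWAT_SVF members and 10 in iWAT_SVF, with none at least 2-fold lower. Their median log2 ratio was 1.58 and 1.27, beside the medians of -0.31 and -0.18 for all genes. Against all other barcodes in place of the lower 50%, 9 were at least 2-fold higher in eWAT_SVF and 5 in iWAT_SVF, with medians of 1.02 and 0.87. The 16 genes of this list together held 56781 CPM in eWAT_SVF members against 18580 in the lower 50%, and 37651 against 17344 in iWAT_SVF. Myh11, the smooth muscle myosin heavy chain, stood at 681 against 101 CPM in eWAT_SVF (log2 ratio 2.76, interval 2.71 to 2.80) and at 190.0 against 18.3 CPM in iWAT_SVF (3.38, 3.29 to 3.47). Thinned to 5000 UMIs, 79.5% of eWAT_SVF members held a Myh11 UMI against 21.2% of the lower 50%, and 34.2% against 5.25% in iWAT_SVF. Actg2, enteric smooth muscle actin, stood at 1808 against 298 CPM and at 807 against 192. Cnn1 (calponin, an actin-binding regulator of contraction) stood at 1346 against 293 CPM and at 767 against 179. Mylk, the kinase that phosphorylates the myosin light chain to start contraction, stood at 1395 against 398 CPM and at 471 against 114. Among other genes of the list, named after their values were seen, Acta2 (smooth muscle alpha-actin) had log2 ratios of 1.93 and 1.19 and Tagln (transgelin) of 1.58 and 1.34, while Cald1 (caldesmon), at 0.38 and 0.25, was not called. In eWAT_SVF every member held a UMI of Acta2, which stood at 20464 CPM, and the lower 50% stood at 5379 CPM.

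Several of the 15 genes farthest above the lower 50% in both libraries belong to the same machinery or to muscle. Ppp1r14a, an inhibitor of myosin phosphatase, stood at 426 against 70.4 CPM in eWAT_SVF (log2 ratio 2.60) and 88.2 against 16.8 in iWAT_SVF (2.39). Fbxl22, whose promoter is printed above, stood at 176 against 14.7 CPM (3.57, interval 3.47 to 3.68) and 35.6 against 5.90 (2.59, 2.40 to 2.78). At full depth 69.4% of eWAT_SVF members and 16.6% of the lower 50% held a UMI of it, and 32.6% and 9.86% in iWAT_SVF. Sh3bgr, which is known from heart and skeletal muscle, had log2 ratios of 2.60 and 2.43. Fhl1, a LIM-domain protein of muscle, had 2.06 and 1.64, and Lims2, a LIM-domain adaptor that joins integrin-linked kinase at focal adhesions, had 1.86 and 1.63.

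The rest of the 15 have varied roles. Igfbp2, a secreted binding protein of insulin-like growth factors, stood at 989 against 224 CPM in eWAT_SVF (log2 ratio 2.14) and at 159.5 against 23.7 CPM in iWAT_SVF (2.75). Its UMIs in iWAT_SVF were found in few members: 22.9% of members held a UMI of it and 3 members held 33.2% of its UMIs. Tgm2, a transglutaminase that crosslinks matrix proteins, had log2 ratios of 1.81 and 2.27. Ifi27l2b had 2.77 and 1.98, Susd2, a membrane protein, 1.70 and 2.07, and Rasgrp2, an exchange factor for the small GTPase Rap1, 1.62 and 2.07. Neb, which encodes nebulin, the ruler protein of the skeletal thin filament, had 1.64 and 2.23. In iWAT_SVF 3 members held 69.5% of its UMIs, and without the 2 barcodes described next its log2 ratio there was 0.64.

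**Figure D3:**
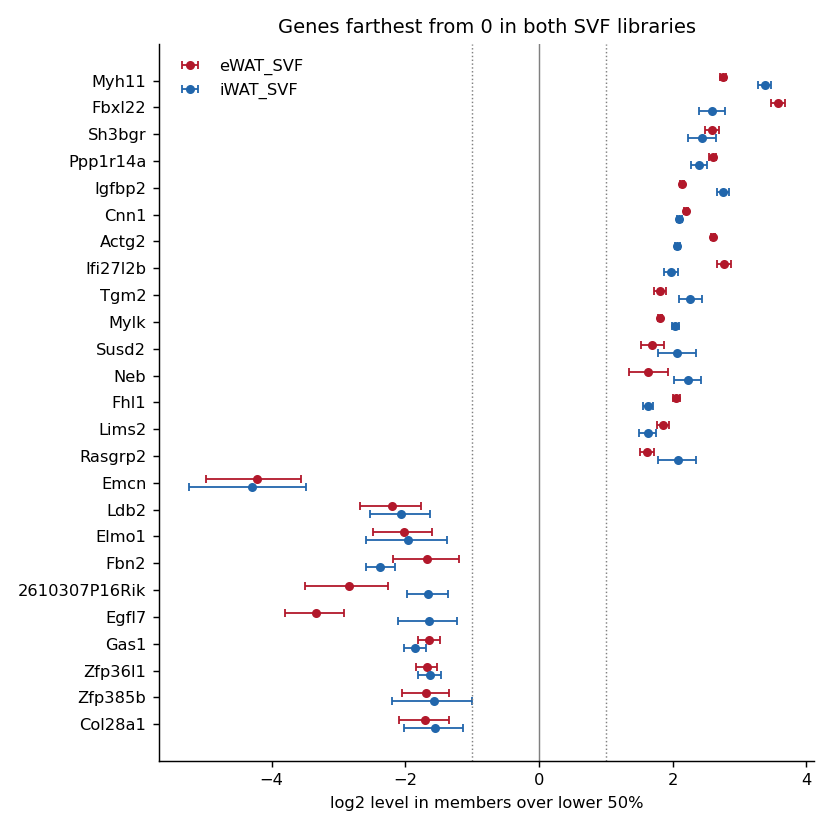
Log2 ratio of members to lower 50% (x axis) for the 15 genes farthest above and the 10 farthest below 0 in both libraries, ranked by the library where the ratio is nearer 0, with exact intervals that cover counting error only. Dotted lines mark 2-fold. Neb in iWAT_SVF is 2.23 with and 0.64 without 2 barcodes, and Emcn and Egfl7 are under 2-fold without barcodes of other cell types.

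The 2 barcodes with the highest ratio of all in iWAT_SVF, at 11006 and 10825 UMIs of the 4 genes per 1000000, were unlike the other members. They were singled out after their values were seen, as the only barcodes of the library with 5 or more UMIs of Mylpf, the fast skeletal regulatory myosin light chain. They held 366 and 333 UMIs of it, out of 21261 and 20970 UMIs in all, while no other barcode held more than 3. The barcode with 333 UMIs of Mylpf also held 175 UMIs of Acta1, 458 of Myl1, 163 of Ttn (titin), 178 of Tnnc2 and 60 of Neb, and the other held 216, 167, 428, 158 and 137. In the same order they held 6 and 7 UMIs of Myod1 and 5 and 22 of Myog, the myogenic factors, of which no other iWAT_SVF member held a UMI. Neither held a UMI of Myh11, Pdgfra, Pdgfrb, Mki67 or Top2a, and Acta2 gave only 12 and 15 UMIs. They held UMIs of 23 and 22 of the 25 striated muscle genes listed. No barcode of eWAT_SVF reached 5 UMIs of Mylpf.

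The striated muscle list turned on these 2 barcodes in iWAT_SVF. Only 4 of its 25 genes reached the level needed for testing in each library. Of all genes, 1.2% in eWAT_SVF and 0.93% in iWAT_SVF were higher. With the 2 barcodes, all 4 tested genes of the list were at least 2-fold higher in iWAT_SVF, and without them 2 were. These were Tnnt2 and Ldb3, with log2 ratios of 1.12 and 1.77 without the 2 barcodes. Myl4, an atrial and embryonic myosin light chain, stood at 53.7 CPM in all iWAT_SVF members, 8.24 CPM in the 369 others and 6.61 CPM in the lower 50%. Mylpf stood at 2.18 CPM in the 369 and 2.35 CPM in the lower 50%. In the eWAT_SVF members, 3 of 4 tested genes were higher. Des, the intermediate filament of smooth and striated muscle, stood at 664 against 143 CPM (log2 ratio 2.22, interval 2.17 to 2.26), Tnnt2, cardiac troponin T, at 75.9 against 25.6 CPM (1.57), and Ldb3, a Z-disc protein, at 26.1 against 8.71 CPM (1.58). Mylpf was at 2.00 against 2.55 CPM, and no UMI of Ttn, Myl1, Ckm, Myog or Myod1 was found in any eWAT_SVF member. Des was found in 84.0% of eWAT_SVF members and Tnnt2 in 28.5%. Tnnt2 stood at 30.9 CPM in the 170 eWAT_SVF members led by Acta1 and 116 CPM in the 146 led by Ckb. It stood at 97.4 CPM in the 16 led by Mustn1 and 527 CPM in the 5 led by Ramp1. In the 369 other iWAT_SVF members Des, which was under the level needed for testing there, stood at 9.57 against 2.20 CPM, and 13.0% held a UMI of it.

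Other lists related to actin and tension moved less. Of 20 serum response factor and MRTF target genes, 2 were at least 2-fold higher in each library, Fhl1 and Csrp1, a LIM protein of smooth muscle (log2 ratios 1.71 and 1.61), and the list medians were 0.55 and 0.42. Of all genes, 1.2% and 0.93% were higher and 7.82% and 2.19% lower. Centred on the median of all genes, 9 of the 20 were higher in eWAT_SVF and 2 in iWAT_SVF. Actn1 (alpha-actinin), at 0.74 and 0.64, and Actg1 (cytoplasmic gamma-actin), at 0.72 and 0.49, were not called. Of the integrin and focal adhesion genes, 4 of 14 were higher in eWAT_SVF and 1 of 14 in iWAT_SVF, or 5 and 4 when centred. Itga5, the fibronectin receptor subunit, had log2 ratios of 1.28 and 0.99, Itga1, a collagen receptor subunit, 1.13 and 0.94, and Itga8 1.80 and 0.94. YAP and TEAD target genes went both ways, with 3 of 20 higher and 3 lower in eWAT_SVF, and 2 of 21 higher and 1 lower in iWAT_SVF. Centred, none was lower in eWAT_SVF. Ankrd1, a titin-binding nuclear protein, had log2 ratios of 1.35 and 1.47, and Ccn2 1.14 and 0.76, while Igfbp3 had -1.21 and -2.27.

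Some heat shock genes stood higher in the members. Of 10 tested, 3 were at least 2-fold higher in eWAT_SVF and 4 in iWAT_SVF, with list medians of 0.77 and 0.75, beside 1.2% and 0.93% of all genes higher and medians of -0.31 and -0.18. Centred, 6 and 4 were higher. Hspb1 stood at 1581 against 538 CPM in eWAT_SVF and at 679 against 229 in iWAT_SVF (log2 ratios 1.56 and 1.57). Hspb6, known in smooth muscle relaxation, had log2 ratios of 1.79 and 1.37, Hspb7 1.34 and 1.86, and Cryab, a desmin chaperone, 0.94 and 1.17, which was called in iWAT_SVF alone. Hspb8, another small heat shock gene, was not called, at 0.24 and 0.16.

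No tested partner of Ramp1 or Ckb was at least 2-fold higher. Of the CGRP and adrenomedullin genes, 3 of 5 tested were lower in eWAT_SVF and none of 3 in iWAT_SVF, beside 7.82% and 2.19% of all genes. Without barcodes of other cell types, defined below, 1 of 3 was lower in eWAT_SVF. Calcrl, the receptor that Ramp1 joins, stood at 4.00 CPM in eWAT_SVF members and 12.0 in the lower 50% (log2 ratio -1.58, interval -2.07 to -1.14) and at 6.79 and 10.1 CPM in iWAT_SVF (-0.58). Without those barcodes, these log2 ratios were -1.70 and -0.46. Adm, which encodes adrenomedullin, had -0.30 and -0.10, and the CGRP gene Calca had no UMI in the members of either library. Of the creatine and phosphagen genes 3 were tested and none was called: Slc6a8, the creatine transporter, had log2 ratios of 0.10 and 0.10, Ak1 0.07 and 0.24, and Gamt, of creatine synthesis, -0.29 and -0.03.

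Several genes of mitosis stood lower in the members. Of 16 genes of the G2 and M phases, 8 were at least 2-fold lower in eWAT_SVF and 7 in iWAT_SVF, beside 7.82% and 2.19% of all genes. None was higher, and the medians were -0.99 and -0.94 against -0.31 and -0.18 for all genes. Centred on the median of all genes, 2 in eWAT_SVF and 4 in iWAT_SVF were at least 2-fold lower, so most of the eWAT_SVF calls were lost. Mki67, a proliferation marker, stood at 35.6 against 96.6 CPM and at 59.9 against 140.2 CPM. Ccnb2, a mitotic cyclin, had log2 ratios of -1.31 and -1.39, Cenpf -1.41 and -1.32 and Bub1 -1.26 and -1.12. None of the 14 tested S phase genes was called, with a median of -0.51 in both. The shares of members with a UMI of Mki67 were 24.3% in eWAT_SVF and, without the 2 Mylpf barcodes, 29.5% in iWAT_SVF. Among barcodes without a UMI of Top2a or Mki67, 11 and 12 smooth muscle contractile genes were at least 2-fold higher.

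Few progenitor and matrix genes were called, and with all barcodes kept those called were lower. Of the progenitor genes, 3 of 10 tested were at least 2-fold lower in eWAT_SVF and 1 of 9 in iWAT_SVF, and none was higher. The 12 genes of the list summed to 2508 CPM in eWAT_SVF members and 2493 in the lower 50%, and to 2164 and 2367 in iWAT_SVF. Pdgfra, the receptor that marks adipose progenitors, stood at 46.6 against 97.2 CPM (log2 ratio -1.06) and had a log2 ratio of -0.65 in iWAT_SVF, with 57.4 CPM in the members, and 62.6% of eWAT_SVF members still held a UMI of it. Sema3c had -1.92 and -0.95, Dcn (decorin) -0.73 and -0.56, and Fbn1 (fibrillin) -0.33 and -0.49. The farthest below were Dpp4, a surface peptidase of early progenitors, at 2.48 against 14.2 CPM in eWAT_SVF (-2.52), and in iWAT_SVF Cd34, a surface sialomucin, at 3.49 against 11.3 CPM (-1.69). The eWAT_SVF calls turned on barcodes of other cell types, defined below, which made up 16.3% of its lower 50% and 0.890% of its members. Without them 1 progenitor gene was lower there, Pdgfra (-1.01), while Sema3c had -0.78 and Dpp4 -0.75 (2.49 against 4.19 CPM, under the level needed for testing). In iWAT_SVF 2 were then lower, Cd34 (-1.62) and Sema3c (-1.06). Mfap5, a microfibril protein, stood at 1030 against 721 CPM in eWAT_SVF (0.51) and had 0.31 in iWAT_SVF, and Anxa3 had 0.26 and 0.25. Of 19 TGF-beta response and matrix genes, none was higher, and 1 and 2 were lower, beside 7.82% and 2.19% of all genes. With all barcodes kept and centred on the median of all genes, 2 progenitor genes and 1 matrix gene were lower in eWAT_SVF, and 1 and none in iWAT_SVF. The 2 progenitor genes in eWAT_SVF were Dpp4 and Sema3c, so the call of Pdgfra was lost when centred. No progenitor gene of eWAT_SVF was thus called both when centred and without barcodes of other cell types. Cdh11, a mesenchymal cadherin, had -2.13 and -1.05, Col3a1 -0.63 and -0.72, and Thbs1 0.56 in both. Without barcodes of other cell types, 1 matrix gene was higher and 1 lower in eWAT_SVF, and 0 and 2 in iWAT_SVF. The higher one was Eln, at 12.4 against 5.72 CPM (1.11), which had -0.53 with those barcodes kept. Cdh11 then had -1.24 in eWAT_SVF. Fabp4, a fatty acid carrier of adipocytes and of endothelium, stood at 390.0 against 294 CPM in eWAT_SVF (0.41) and at 152 against 66.9 CPM in iWAT_SVF (1.18). The 7 tested adipogenic genes had list medians of -0.57 and -0.22, beside -0.31 and -0.18 for all genes. None of the 7 was called higher and 1 lower in eWAT_SVF, and 1 higher and none lower in iWAT_SVF. The lower one was Pparg, the nuclear receptor that drives fat cell formation, at 4.95 against 9.96 CPM in eWAT_SVF (log2 ratio -1.01, a call lost when centred) and with 0.15 in iWAT_SVF. Lpl, lipoprotein lipase, had -0.96 and -0.22, and the C/EBP factors Cebpd, Cebpa and Cebpb had -0.76, -0.57 and -0.41 in eWAT_SVF. In iWAT_SVF the lowest log2 ratio of any tested adipogenic gene was -0.50. Without barcodes of other cell types, Pparg (-1.10) and Lpl (-1.03) were both lower in eWAT_SVF. Pparg, Lpl, Dpp4, Cd34, Mfap5, Anxa3, Eln and Hspb8 were named after their values were seen.

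**Figure D4:**
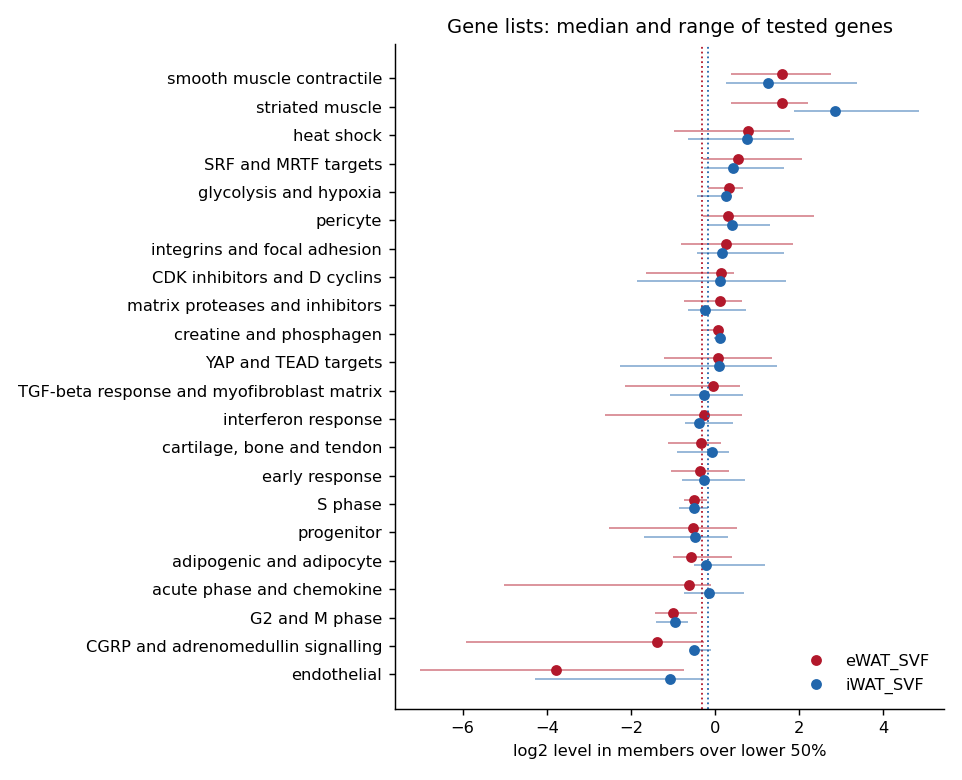
Median (points) and range (lines) of the log2 ratio of members to lower 50% over the tested genes of each list with 3 or more tested in both libraries, with dotted lines at the median of all genes tested. Smooth muscle contractile genes have medians of 1.58 and 1.27 and G2 and M phase genes -0.99 and -0.94. The striated muscle median in iWAT_SVF, 2.85, is 0.72 without 2 barcodes, and the endothelial medians, -3.78 and -1.06, are -0.53 and -0.35 without barcodes of other cell types.

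The lower 50% also held barcodes of other cell types. Barcodes with 1000 CPM or more of 10 endothelial markers numbered 136 in the eWAT_SVF lower 50% and 51 in that of iWAT_SVF, and 0 among the members of either. Barcodes with as much of 10 mesothelial markers numbered 408, or 12.1%, in the eWAT_SVF lower 50% and 1 among the members. Immune barcodes numbered 2 and 1 among the members and 7 and 0 in the lower 50% of each, and Schwann and glial barcodes 5 among the members and 56 in the lower 50% of iWAT_SVF, with none in eWAT_SVF. The summed immune markers stood higher in the members, at 91.8 against 57.2 CPM in eWAT_SVF and 37.0 against 14.7 CPM in iWAT_SVF, where Lyz2, a lysozyme of myeloid cells, was called (12.0 against 2.33 CPM, log2 ratio 2.36) and Csf1r was not (0.64). The summed mesothelial markers stood at 115 against 56.9 CPM in iWAT_SVF members, nearly all of it Krt19, a keratin (114 against 55.6 CPM, 1.04). With barcodes of other cell types left out, Krt19 had 0.98 in iWAT_SVF and Lyz2, then under the level needed for testing, 0.85. In eWAT_SVF the same step took Krt19 from 0.68 to 2.73 (17.9 against 2.70 CPM, then under the level needed for testing). Lyz2 had 0.64 there with and without those barcodes. The part of all these barcodes in the other results was read by leaving them out. Leaving all such barcodes and the 2 with Mylpf out before members were chosen, a choice made after the values were seen, gave 119 genes higher and 461 lower in eWAT_SVF, and 87 and 201 in iWAT_SVF. The smooth muscle counts were again 11 and 10 genes, and Fbxl22, Myh11 and Actg2 had log2 ratios of 3.35 and 2.59, 2.54 and 3.38, and 2.36 and 2.07. Of the 10 lowest genes, Emcn and Egfl7, both endothelial, lost their call: Emcn went from log2 ratios of -4.22 and -4.29 to -0.88 and 0.96, and Egfl7 from -3.34 and -1.65 to -0.40 and -0.45. The other 8 (Ldb2, Elmo1, Fbn2, 2610307P16Rik, Gas1, Zfp36l1, Zfp385b and Col28a1) stayed at least 2-fold lower in both. Gas1, a growth arrest gene, stood at 31.2 against 97.1 CPM and 32.0 against 116 CPM, Zfp36l1, an RNA-decay factor, at 30.6 against 98.0 and 28.3 against 87.8 CPM, and Fbn2, a microfibril protein, at 3.53 against 11.2 and 17.4 against 89.8 CPM.

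Of the pericyte markers, the other perivascular class, most were not called before centring. The summed pericyte level had a median of 142 CPM in eWAT_SVF members against 114 in the lower 50%, and 157 against 147 in iWAT_SVF. Of 4 and 5 tested markers, 1 was at least 2-fold higher in each library, Mcam (log2 ratios 2.35 and 1.31), a vascular adhesion molecule that smooth muscle and endothelium also hold. Of all genes, 1.2% and 0.93% were higher. The list medians were 0.31 and 0.39, beside -0.31 and -0.18 for all genes. Centred on the median of all genes, 2 of 4 were higher in eWAT_SVF and 1 of 5 in iWAT_SVF. Pdgfrb, at -0.27 and -0.20, Notch3, at -0.28 and 0.16, and Ndufa4l2, at 0.90 and 0.39, were not called. Barcodes with 1000 CPM or more of pericyte markers numbered 0 of 337 members and 8 of 3372 (0.237%) in the lower 50% of eWAT_SVF, and 6 of 371 members (1.62%) and 8 of 3712 (0.216%) in iWAT_SVF. Of the members, 14 (4.15%) and 20 (5.39%) were also among the top 5% by summed pericyte markers, near the 5% of the whole library. With the top 5% by Myh11 and Actg2 the members shared 79 (23.4%, exact binomial interval 19.0 to 28.3%) and 77 (20.8%, 16.7 to 25.2%). Those Myh11 and Actg2 high barcodes, shared members included, held Acta1 at 432 CPM in eWAT_SVF and 243 in iWAT_SVF. These levels were above the barcodes between and below the members. As a ratio to the members, the other choosing genes stood nearer than Acta1, with Ckb at 662 and 276 CPM, Mustn1 at 214 and 166 CPM and Ramp1 at 259 and 38.4 CPM. In the barcodes between, Ckb stood at 441 and 181 CPM, Mustn1 at 207 and 127 CPM and Ramp1 at 165 and 22.9 CPM. Mustn1 in eWAT_SVF was thus close to its level in the barcodes between. All these levels are partly set by the choice of members, since the shared members were kept in.

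Several genes higher in the members also stood higher just below the limit. With rank and level taken from separate random portions of the UMIs, Myh11 in eWAT_SVF stood at 107 CPM in the lowest 50% of barcodes, 248 at 25 to 50% from the top, 411 at 10 to 25%, 583 at 5 to 10%, 585 at 2 to 5%, 797 at 1 to 2% and 641 in the top 1%. In iWAT_SVF it went from 20.9 through 51.5, 100.1, 129, 151 and 204 to 224 CPM. Pdgfra fell over the same steps from 98.7 to 35.9 CPM and from 90.5 to 49.6 CPM. Striated genes of iWAT_SVF went both ways: at 5 to 10%, Tnnt2 stood at 14.6 CPM against 6.88 in the lowest 50% and Neb at 8.12 against 6.18, while Myl4 stood at 5.90 against 6.54 and Mylpf at 1.85 against 2.80. Acta1, a choosing gene, stood at 338 CPM at 5 to 10% and 2874 in the top 1% in eWAT_SVF, and at 258 and 2897 CPM in iWAT_SVF.

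**Figure D5:**
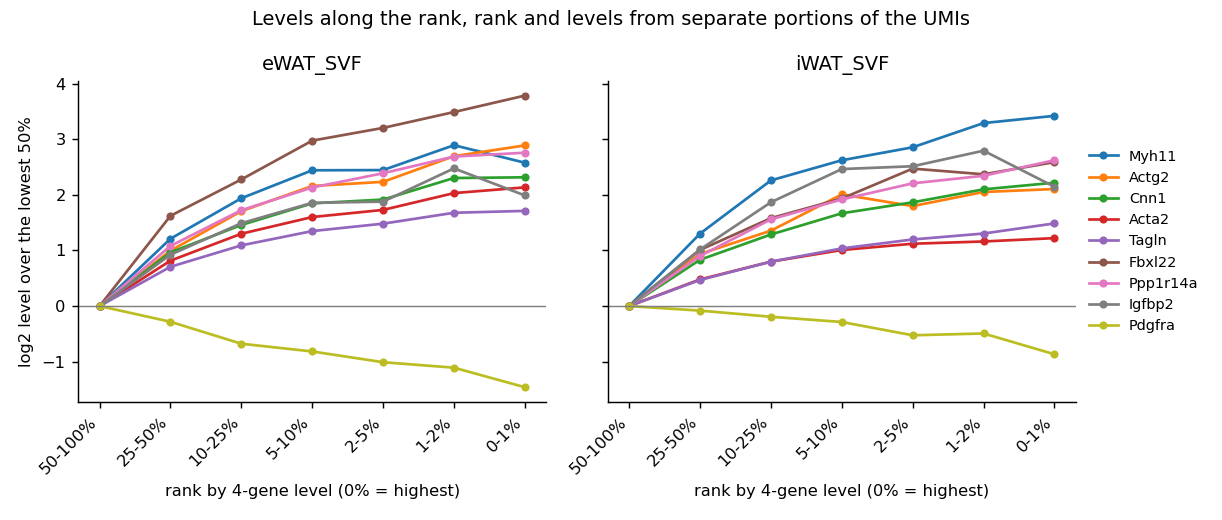
Levels of 9 genes in 7 steps of the rank by the 4-gene ratio (x axis, lowest 50% at the left, top 1% at the right), as log2 over the lowest 50% (y axis), with rank and levels from separate portions of the UMIs. The contractile genes, Fbxl22, Ppp1r14a and Igfbp2 already stand higher in the steps below the top 5%, and Pdgfra lower.

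In a space of 30 principal components made without the 4 genes, the members lay near each other more often than the barcodes at large but did not form a separate group. Of the 20 nearest neighbours of a member, 20.6% on average were members in eWAT_SVF and 14.9% in iWAT_SVF, with members making up 5.00% of each library. In the lower 50%, 1.07% and 2.12% of neighbours were members. At least 50% of the neighbours were members for 28 of 337 eWAT_SVF members and 10 of 371 in iWAT_SVF. The top 5% by Myh11 and Actg2 gave like values, 23.0% and 19.5%, but Myh11 and Actg2 were themselves among the genes that could enter that space. The members are thus named here by the genes that chose them and by no cell type.

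Both DFAT libraries held few barcodes at the limit of their own depot. At the limit of the same depot's SVF library, 28 of 6464 eWAT_DFAT barcodes (0.433%, 0.288 to 0.625%) and 6 of 7629 iWAT_DFAT barcodes (0.0786%, 0.0289 to 0.171%) stood at or above it, against 5.00% of SVF barcodes by construction. The share depends on the limit: at 1000 CPM, near the iWAT_SVF limit, 131 eWAT_DFAT barcodes (2.03%) stood at or above it. At that level the shares were 20.6% in eWAT_SVF and 4.98% in iWAT_SVF. Over all barcodes within the limits, Acta1 stood at 32.6 CPM in eWAT_DFAT and 3.02 in iWAT_DFAT, against 129 and 115 CPM in eWAT_SVF and iWAT_SVF. Ckb stood at 139 and 20.5 CPM against 317 and 126, Mustn1 at 41.2 and 20.7 CPM against 146 and 83.7, and Ramp1 at 9.96 and 0.593 CPM against 112 and 16.7. In each gene both DFAT levels lay below the SVF level of the same depot, and iWAT stood below eWAT in both cell types. The headers of the deposited matrices name another software release for iWAT_SVF than for the other 3, so release and library cannot be told apart.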

How the data were processed

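Single-cell RNA-seq libraries (10x 3′ v3.1) of cultured cells were compared as UMI counts. The authors aligned reads to mm10 with Cell Ranger 7.0.0 per the labels, introns included per the study's methods, and deposited raw counts of 32285 genes for every droplet, before removal of free RNA, doublets or low-quality cells. The file headers name release 7.1.0 for 3 libraries and 4 for iWAT_SVF. Barcodes with 5000 to 75000 UMIs, 200 to 7500 genes and under 10% mitochondrial UMIs were kept. The members and gene lists were chosen with earlier results of these data known. UMIs were summed over members and over the lower 50% of each library, scaled to CPM, and compared as log2 ratios for genes at 5 CPM or more over all kept barcodes, with a call at 2-fold and zeros set to 3 counts. Intervals are 95% exact Poisson (CPM), exact conditional binomial (ratios) and exact binomial (shares). No test was run, since each condition is 1 library. Genes were named by rule: the 4 choosing genes, the 15 highest and 10 lowest ratios ranked by the library nearer 0, and up to 4 genes per list, while exceptions are marked or describe the striated muscle barcodes and marker lists. Scrublet called 4 and 1 doublets, too few to be usable, so none were removed, and the highest-scoring 364 and 441 barcodes were left out as an alternative, which held 3 and 26 members. The 20 nearest neighbours came from 30 principal components of up to 2000 variable genes without the choosing genes. Promoters are from the RefSeq table of GRCm38.p6. TMM factors came from edgeR 4.0.16 in R 4.3.3. All other steps ran in Python 3.11.15, with scanpy 1.11.5 and scikit-learn 1.9.0 for doublets and neighbours, scipy 1.17.1 for intervals, and pandas 2.3.3, numpy 2.4.6 and matplotlib 3.10.9. Scripts were tested on simulated data.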

Additional observations from a re-analysis of the deposited data

Results flagged for a closer look

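Lrp2 and Slpi were the genes at least 2-fold lower in the members of one library and at least 2-fold higher in the other, and they were chosen after their values were seen. The log2 ratio of Lrp2 was -1.05 in eWAT_SVF (8.86 against 18.4 CPM) and 1.12 in iWAT_SVF (10.4 against 4.78 CPM). The log2 ratio of Slpi was -6.45 in eWAT_SVF (2.67 against 233 CPM) and 1.03 in iWAT_SVF (10.8 against 5.27 CPM). The difference between depots was not tested for either gene, and barcodes high in mesothelial markers made up 12.1% of the eWAT_SVF lower 50% and none of that of iWAT_SVF. Their part in these values was not tested.

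In iWAT_SVF, Acta1 and Ckb also appeared in barcodes outside the limits, which entered neither the members nor the lower 50%. The 700 barcodes with 500 to under 5000 UMIs held Acta1 at 275 CPM and Ckb at 184 CPM, against 115 and 126 CPM within the limits, and Mustn1 at 66.5 CPM and Ramp1 at 12.2 CPM, against 83.7 and 16.7. The 193 barcodes with over 7500 genes held Acta1 at 157 CPM.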

How the results depend on the processing

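No paired analysis was possible because each condition is a single library, and no replicate could be left out. Under the alternatives, list medians stayed on their side of 2-fold in 421 of 440 values in eWAT_SVF and 433 of 464 in iWAT_SVF, and named genes in 1461 of 1544 and 1574 of 1647. The list medians counted here include that of the 4 choosing genes, which is set by the choice of members. Counts of genes higher and lower in eWAT_SVF (117 and 762) were 56 and 342 against all other barcodes, 250 and 319 centred on the median of all genes, 240 and 330 with TMM factors, and 74 and 301 at 20 CPM or more. In iWAT_SVF (91 and 214) they were 39 and 92 against all other barcodes, 127 and 108 centred, 124 and 110 with TMM factors, and 45 and 91 at 20 CPM. Without the filter on low genes they were 5826 and 2600 and 5901 and 1356, where a gene at 0 in the smaller group of members is set to 3 counts. Lower genes in iWAT_SVF numbered 515 with the top 2% as members and 368 in barcodes without Top2a or Mki67. The last 3 alternatives, given next, were chosen after seeing the data. Without barcodes of other cell types 461 genes were lower in eWAT_SVF, 2 striated genes were higher in iWAT_SVF, as without the Mylpf barcodes, and Emcn turned to 0.96 in iWAT_SVF. With each gene's 3 highest barcodes left out, 1145 and 379 genes were lower and 1 striated gene was higher in iWAT_SVF. The iWAT_SVF smooth muscle count was 5 against all other barcodes, and without the filter 10 and 25 striated genes were higher. At 20 CPM no striated gene was left in iWAT_SVF. With 50 neighbours, 19.0% and 13.6% of the members' neighbours were members. With 20 neighbours and members chosen on a portion of the UMIs, these shares were 19.9% and 13.6%. For the top 10%, overlaps with Myh11 and Actg2 high barcodes were 36.2% and 29.6%, and with pericyte-high barcodes 9.20% and 11.1%. Shares of thinned members with 2 or more UMIs were 43.6% and 29.1% for Mustn1, 65.6% and 69.8% for Acta1, 86.6% and 42.3% for Ckb and 43.0% and 4.31% for Ramp1. Except where named, the cause of a change was not tested.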
